A study of Mus musculus with 2 samples.

Results

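Mdm2 and 9 genes tied to it or to p53 were described in 2 libraries of 3T3-L1 cells, a clonal line of mouse fibroblasts used as a model of adipocyte formation. The set holds Mdm2, its chromosomal neighbour Slc35e3, its relative Mdm4, p53 itself (Trp53), the CDK inhibitor locus Cdkn2a, and the p53 targets Cdkn1a, Ccng1, Zmat3, Phlda3 and Btg2. The genes were chosen by symbol, Mdm2 for its high level in these same libraries and the others for their place beside it or in its pathway, so the high level of Mdm2 is a description and not a test. All 10 have a row among the 23282 deposited rows, and all 10 reached the 40 summed counts at which a gene is called measured here, as did 11660 rows in all. One culture was given an siRNA against Pink1 and the other a control siRNA, and each gave 1 library of 3′ tags, read near the poly(A) end of transcripts. By the labels these were adipocytes; the labels give neither the time after transfection nor the day of differentiation.

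p53 is a transcription factor that is stabilised by DNA damage and other stress and that switches on genes for growth arrest, repair and cell death. Mdm2 is the ubiquitin ligase that marks p53 for destruction, and since Mdm2 is itself a p53 target the pair forms a negative feedback loop. Mdm4 is a relative of Mdm2 that binds p53 and blocks its activity, and one of the products of Cdkn2a, Arf, binds Mdm2 and frees p53. In 3T3-L1 preadipocytes an amplified Mdm2 gene has been described, whereas DNA copy number was not measured in this series.

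With 1 library per group every difference below lacks a replicate check, and p-values were not computed. The Pink1 siRNA library held 14214768 counts and the control library 13803174. Levels are given as CPM, counts scaled to a common library size. Pink1 itself was at 25.1 CPM in the Pink1 siRNA library against 36.5 CPM in the control library (351 and 511 counts), a ratio of 0.687 (counting interval 0.598 to 0.788). Widened by the spread of genes of its level, its interval was 0.445 to 1.05 and included 1. The 5 fibroblast or preadipocyte markers together reached 20745 CPM in the Pink1 siRNA library and 18540 CPM in the control library. The 6 adipocyte markers reached 2526 and 2372 CPM, but did not all go the same way. Fabp4 had the most counts of these, 16749 in the Pink1 siRNA library and 14673 in the control library. Cfd was also higher in the Pink1 siRNA library, Plin1 was lower, and Adipoq, Lpl and Pparg were almost level. The macrophage markers summed to 1.64 and 1.78 CPM and the endothelial markers to 0.50 and 0.57 CPM, with Adgre1 and Cdh5 at 0 counts in both libraries. In bulk RNA, fewer cells of a type and less RNA per cell cannot be told apart.

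The upstream windows of 3 p53 targets are shown because each holds a match to the p53 half-site consensus, the 10-base element that p53 binds in pairs. A window of Trp53 also holds a match and is not printed. The printed windows are the first 220 bases of RefSeq windows (GRCm38.p6, the assembly of mm10) that open 250 bases before the annotated start. Capitals mark each half-site match and, in Cdkn1a, the 20 bases around a match to CATG, any 6 bases and CATG, the core of a pair of half-sites with nothing between them, which there overlaps a half-site match. The Cdkn1a window lies at chr17:29090729-29090948 on the plus strand, the Mdm2 window at chr10:117710789-117711008 on the minus strand and the Ccng1 window at chr11:40755317-40755536 on the minus strand.
Cdkn1a: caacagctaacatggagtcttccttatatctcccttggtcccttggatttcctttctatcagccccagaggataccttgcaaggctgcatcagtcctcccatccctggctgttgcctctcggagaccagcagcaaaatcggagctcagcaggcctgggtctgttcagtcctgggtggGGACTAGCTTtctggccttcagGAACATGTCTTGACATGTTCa
Mdm2: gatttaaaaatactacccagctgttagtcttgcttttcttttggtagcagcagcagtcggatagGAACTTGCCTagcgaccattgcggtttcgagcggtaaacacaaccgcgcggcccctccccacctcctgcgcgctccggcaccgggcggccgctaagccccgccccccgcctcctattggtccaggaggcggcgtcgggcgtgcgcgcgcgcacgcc
Ccng1: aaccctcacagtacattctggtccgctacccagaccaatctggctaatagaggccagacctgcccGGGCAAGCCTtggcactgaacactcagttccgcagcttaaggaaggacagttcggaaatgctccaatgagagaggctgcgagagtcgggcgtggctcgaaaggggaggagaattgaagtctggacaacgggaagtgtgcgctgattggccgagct

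Both motifs read the same on either strand. The half-site consensus was present in 4 of 12 member windows, 1 each of Cdkn1a, Mdm2, Ccng1 and Trp53, and in 8.36% of all 32851 windows of 300 bases. The paired core was present in the Cdkn1a window printed above and in no other member window, against 0.712% of all windows. A further Cdkn1a window, at chr17:29093519-29093738 before an annotated start at 29093769, held neither motif. The first base of the match lay 186 bases before the start in Mdm2 and 185 bases before it in Ccng1. The paired element of Cdkn1a began 51 bases before the upstream one of its annotated starts, at 29090979. A match describes letters only. The well-known p53 sites of Mdm2 are in its first intron, outside this window. Windows were found for 9 of the 10 members, and Zmat3 is named only.

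Mdm2 was among the most abundant transcripts of both cultures. It had 82471 counts, or 5888 CPM after scaling, in the Pink1 siRNA library and 81638 counts, or 5828 CPM, in the control library. That was the 6th highest of 23282 rows in each library, below Rn45s, Malat1, Col1a2, Dlk1 and Col3a1. It took 0.580% of the Pink1 siRNA counts (95% exact Clopper-Pearson interval 0.576 to 0.584) and 0.591% of the control counts (0.587 to 0.596). The intervals here and below cover counting error only. The tag counts were not divided by length, since the assay reads 3′ ends. Per kilobase of the longest annotated transcript, Mdm2 was 16th in the Pink1 siRNA library and 10th in the control library.

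The 5 annotated genes whose pair of levels lay nearest to that of Mdm2, by Euclidean distance in log2 CPM over the 2 libraries, were Col3a1, Fth1, Hsp90ab1, Sparc and Actb. Col3a1, a fibrillar collagen chain, was nearest at a distance of 0.12, with 6379 CPM in the Pink1 siRNA library and 5841 CPM in the control library. The ferritin chain Fth1 followed at 0.57, the chaperone Hsp90ab1 at 0.59, the matrix protein Sparc at 0.64 and actin Actb at 0.64. Mdm2, a regulator, was thus read at the level of structural, matrix and housekeeping transcripts.

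Between the cultures Mdm2 differed by about 1%. Its ratio, Pink1 siRNA over control, was 1.01 (counting interval 1.001 to 1.020). The sign depends on the scaling, since the log2 ratio was 0.015 with trimmed mean of M values (TMM) scaling and -0.028 with total counts. Among the 583 measured genes of similar level, those of its twentieth (or band) of mean level, 216 had a ratio no higher, and Mdm2 lay between the 25th and 75th percentiles.

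**Figure D1:**
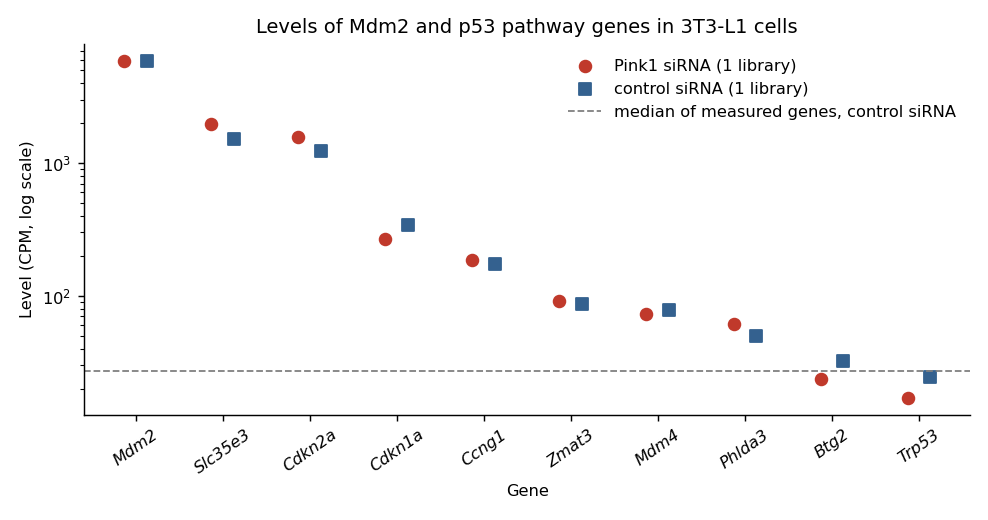
Levels of the 10 genes in CPM (log axis), with circles for the Pink1 siRNA library and squares for the control siRNA library (1 library each), ordered by control level. Mdm2, Slc35e3 and Cdkn2a stand above 1000 CPM, and Trp53 lies below the median of measured genes (dashed line, 27.2 CPM in the control library) in both libraries.

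Slc35e3, a member of a solute carrier family of nucleotide-sugar transporter-like proteins, was the second most abundant of the set by tags. It had 27384 counts (1955 CPM) in the Pink1 siRNA library and 21140 counts (1509 CPM) in the control library, ranks 31 and 38. Its ratio was 1.30 (counting interval 1.27 to 1.32). Among the 583 genes in its band of level, 50 had a ratio at least as high.

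The other 3 measured genes with Slc35e symbols were far lower. Slc35e1 had 30.7 CPM in the Pink1 siRNA library and 31.6 CPM in the control library. Slc35e2 had 12.3 CPM in both, and Slc35e4 had 11.2 and 13.99 CPM. Slc35e3 therefore held 63.7 times the tags of Slc35e1 in the Pink1 siRNA library and 47.7 times in the control library. Per kilobase these were 80.0 and 59.9 times, although 3′ tags do not scale with length. Slc35e2 overlaps the gene Gm16023 (28 and 33 counts) over 15041 bases, and its counts are uncertain.

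Slc35e3 and Mdm2 lie next to each other on chromosome 10, both on the minus strand. Mdm2 runs from 117688875 to 117710758 and Slc35e3 from 117733678 to 117746358 (mm10), with 22.9 kb between them, and Slc35e3 is on the side of the Mdm2 start. Mdm2 had 3.01 times the counts of Slc35e3 in the Pink1 siRNA library and 3.86 times in the control library. This within-library ratio does not depend on scaling.

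Among the measured genes around Mdm2, high levels were common but not general. Within 500 kb of the gene, 12 RefSeq genes have a row and 8 were measured, with a median of 217 CPM in the Pink1 siRNA library and 216 CPM in the control library. The median of all measured genes was 27.2 CPM in each library. Of the 8, Slc35e3 among them, 5 lay above the median of measured genes in the control library. That count is by itself close to the even split that a median sets. The 5 lay at control percentiles from 91.6 (Cpsf6) to 99.7 (Slc35e3). The window size matters, since within 1000 kb the median of 12 measured genes was 86.8 and 103 CPM, and within 2000 kb that of 15 genes was 48.4 and 42.4 CPM.

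On the far side of Slc35e3 lie the nucleoporin Nup107 and the small GTPase Rap1b. Nup107, 39.9 kb from Mdm2, had 325 CPM in the Pink1 siRNA library and 329 CPM in the control library, at percentiles 96.3 and 96.6 of measured genes. It was the highest of 19 measured genes with Nup symbols, whose medians were 25.7 and 25.1 CPM, a comparison chosen after its level was seen. Rap1b had 289 and 261 CPM. On the other side, at 312 and 464 kb, the RNA cleavage factor Cpsf6 had 146 CPM in the Pink1 siRNA library and 172 CPM in the control library, and the chromatin reader Yeats4 had 380 and 393 CPM.

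The gene closest to Mdm2 was not high. Cpm, which encodes carboxypeptidase M, ends 1.52 kb from the end of Mdm2 and is on the plus strand. It had 13.3 CPM in the Pink1 siRNA library and 19.6 CPM in the control library, at percentiles 31.6 and 40.7. Mdm1, at 431 kb and not related to Mdm2 despite its symbol, had 15.4 and 13.3 CPM. The lysozyme genes Lyz1 and Lyz2 had at most 12 counts in either library, and the cytokine gene Il22 had 0 in both. The window also holds 2 genes with clone symbols, of which 1, a noncoding RNA gene, was measured. Ratios of the measured neighbours lay between 0.679 for Cpm and 1.41 for that noncoding RNA gene (48 and 34 counts), and none reached a 2-fold difference.

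**Figure D2:**
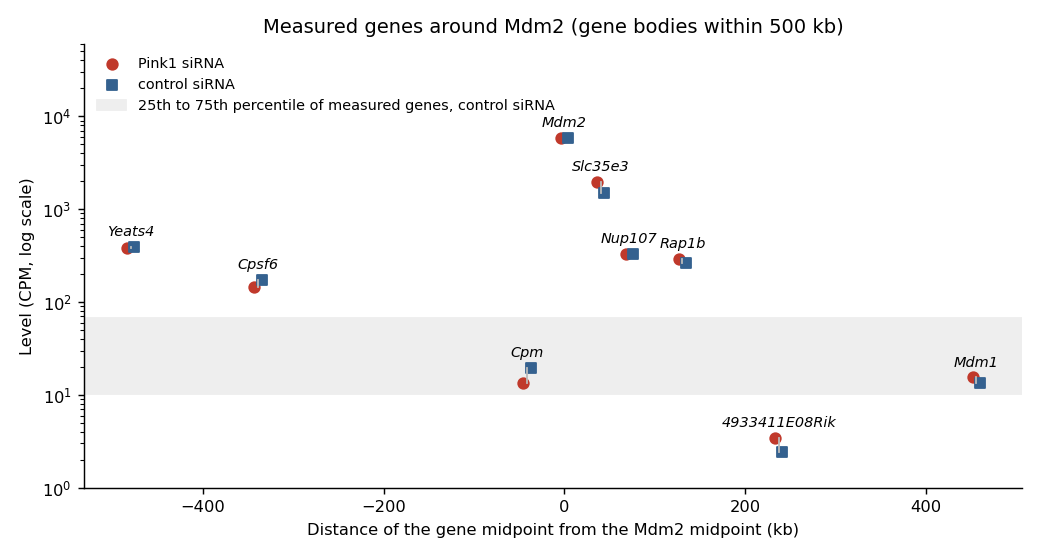
Levels (CPM, log axis) of measured genes whose bodies lie within 500 kb of Mdm2, by the distance of their midpoints from the Mdm2 midpoint in kb, with circles for the Pink1 siRNA library and squares for the control library. The grey band runs over the 25th to 75th percentiles of measured genes in the control library, and Cpm, beside Mdm2, lies inside it while Slc35e3, Nup107 and Rap1b lie above it.

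Mdm4, on chromosome 1 from 132986105 to 133030587, was moderate beside Mdm2. It had 1023 counts (73.0 CPM) in the Pink1 siRNA library and 1104 counts (78.8 CPM) in the control library. The ratio was 0.927 (counting interval 0.850 to 1.01, which includes 1). Mdm2 had 80.6 times the tags of Mdm4 in the Pink1 siRNA library and 73.9 times in the control library.

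Trp53 had the fewest tags of the 10 in both libraries. The p53 gene lies on chromosome 11 from 69580348 to 69591873 and had 239 counts (17.1 CPM) in the Pink1 siRNA library and 341 counts (24.3 CPM) in the control library. The ratio was 0.701 (counting interval 0.592 to 0.829), or 1.43-fold lower. Within its own band of 583 genes, 35 had a ratio at least as low. Mdm2 had 345 times the tags of Trp53 in the Pink1 siRNA library and 239 times in the control library. p53 is controlled mainly through protein stability, which these counts do not measure. Of its relatives, Trp63 had 96 counts in the Pink1 siRNA library and 138 in the control library, a ratio of 0.697, and Trp73 had 0 in both.

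Cdkn2a was the third most abundant of the set by tags. Divided by the longest annotated transcript, Cdkn2a had 1761 CPM per kb in the Pink1 siRNA library and 1371 in the control library. Slc35e3 had 560.3 and 433, the reverse of the order by tags. The assay reads 3′ ends, so the order by tags is the one used here. The Cdkn2a locus encodes the CDK inhibitor p16Ink4a and, from another first exon and reading frame, the Mdm2 inhibitor Arf. Both share the 3′ exons, so these tags do not separate them. On chromosome 4 from 89274473 to 89294619, it had 22076 counts (1576 CPM) in the Pink1 siRNA library and 17190 counts (1227 CPM) in the control library, ranks 45 and 57, or 17 and 21 per kilobase. The ratio was 1.28 (counting interval 1.26 to 1.31), and 57 of the 583 genes in its band had a ratio at least as high. The Cdkn2a and Slc35e3 ratios were thus close to each other.

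Neighbours of Cdkn2a did not share its level. Cdkn2b, the p15 CDK inhibitor gene 11.7 kb away, had 90.6 CPM in the Pink1 siRNA library and 87.0 CPM in the control library, so Cdkn2a held 17.4 and 14.1 times its tags. The metabolic enzyme gene Mtap, at 93.4 kb, had 92.4 and 99.9 CPM. The other 20 of 22 genes with a row within 500 kb had at most 8 counts in either library. Of these 20, 11 are predicted genes, 8 have interferon symbols (Ifna1, Ifna4, Ifna5, Ifna6, Ifna7, Ifna11, Ifne and Ifnz) and the other is Dmrta1, at 0 in both libraries.

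Cdkn1a, the p21 gene and the best known growth arrest target of p53, was lower in the Pink1 siRNA library. On chromosome 17 from 29090979 to 29100722, it had 3749 counts (268 CPM) in that library and 4805 counts (343 CPM) in the control library. The ratio was 0.780 (counting interval 0.747 to 0.815), or 1.28-fold lower. In its band of 583 genes, 8 had a ratio at least as low, the most outlying place of the 10. This is the gene whose window above holds the paired p53 element, and a link between that element and the ratio was not tested.

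Apart from Cdkn2a, the other CDK inhibitors had ratios nearer to 1. Cdkn1b, the p27 gene, had 326 CPM in the Pink1 siRNA library and 296 CPM in the control library, a ratio of 1.10. Cdkn2c had 22.3 and 26.2 CPM and Cdkn2d 24.7 and 27.2 CPM. Cdkn1c had 4 and 3 counts and was not measured. Of the 6 measured inhibitors 3 had a ratio above 1 and 3 below.

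Btg2, an antiproliferative p53 target, was lower as well. On chromosome 1 from 134074865 to 134079155, it had 331 counts (23.6 CPM) in the Pink1 siRNA library and 455 counts (32.5 CPM) in the control library. The ratio was 0.728 (counting interval 0.630 to 0.840), and 41 of the 583 genes in its band had a ratio at least as low. Of its family, Btg1 had 235 CPM in both libraries, Tob1 33.98 CPM in the Pink1 siRNA library and 35.4 CPM in the control library, and Tob2 139 and 115 CPM. Btg4 was at 0, and Btg3 has several rows and is given no value.

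Ccng1, Zmat3 and Phlda3, targets of p53 too, had ratios above 1. Ccng1, the cyclin G1 gene on chromosome 11 from 40748552 to 40755309, had 2626 counts (187 CPM) in the Pink1 siRNA library and 2430 counts (173 CPM) in the control library. Its ratio was 1.08 (counting interval 1.02 to 1.14). Zmat3, an RNA-binding zinc finger gene on chromosome 3 from 32334792 to 32365665, had 1288 counts (92.0 CPM) in the Pink1 siRNA library and 1225 counts (87.4 CPM) in the control library. Its ratio was 1.05 (counting interval 0.972 to 1.14, which includes 1).

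Phlda3, whose product holds back the kinase AKT, lies on chromosome 1 from 135766085 to 135769134. It had 864 counts (61.7 CPM) in the Pink1 siRNA library and 702 counts (50.1 CPM) in the control library. The ratio was 1.23 (counting interval 1.11 to 1.36), and 66 of the 583 genes in its band had a ratio at least as high. The direct p53 targets of the set were thus on both sides of 1, with Cdkn1a and Btg2 below it and Phlda3 and Ccng1 above it.

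Relatives of these 3 genes were measured as well. Ccng2 had 38.4 CPM in the Pink1 siRNA library and 42.3 CPM in the control library. Phlda1 had 33.1 and 39.8 CPM, while Phlda2 had 1 and 0 counts. Zmat1 was the furthest from 1 of the 4 measured genes with Zmat symbols, with 1091 counts in the Pink1 siRNA library and 690 in the control library. Its ratio was 1.58 (counting interval 1.44 to 1.74, widened 1.10 to 2.28). Zmat2 and Zmat5 had ratios of 1.11 and 1.12.

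None of the 10 genes reached a 2-fold difference. The rule of size asks for a ratio of 2 or more in either direction with a counting interval that does not hold 1, and 4.02% of measured genes passed it, 1.63% higher and 2.39% lower. The count of 0 among 10 is therefore close to the background. The counting interval left out 1 for 8 of the 10, 5 above 1 (Mdm2, Slc35e3, Cdkn2a, Ccng1 and Phlda3) and 3 below (Trp53, Cdkn1a and Btg2). It did so for 51.2% of all measured genes, 26.2% above and 24.9% below. The split depends on the scaling: with total counts, Rn45s kept or left out, 3 lay above 1 (Slc35e3, Cdkn2a and Phlda3) and 5 below (Mdm2, Mdm4, Trp53, Cdkn1a and Btg2), and with upper-quartile scaling Mdm2 included 1, which left 4 above and 3 below.

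Abundant genes have narrow counting intervals, and the 2 libraries differ by more than counting error at every level. When the interval was widened by the spread of genes of the same level, 2 of the 10 still left out 1, against 4.1% of measured genes. They were Slc35e3 (1.05 to 1.597) and Cdkn2a (1.02 to 1.62). The widened intervals of Trp53 (0.426 to 1.14), Cdkn1a (0.464 to 1.30) and Btg2 (0.462 to 1.14) included 1. Mdm2, Slc35e3, Cdkn2a and Cdkn1a are all in the highest twentieth of level, where the widening factor of 128 weighs most on the genes with fewer counts. Slc35e3 and Cdkn2a lay between the 5th and 95th percentiles of ratios there (-0.25 to 0.42 on the log2 scale), and Cdkn1a, at -0.36, lay below the 5th.

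**Figure D3:**
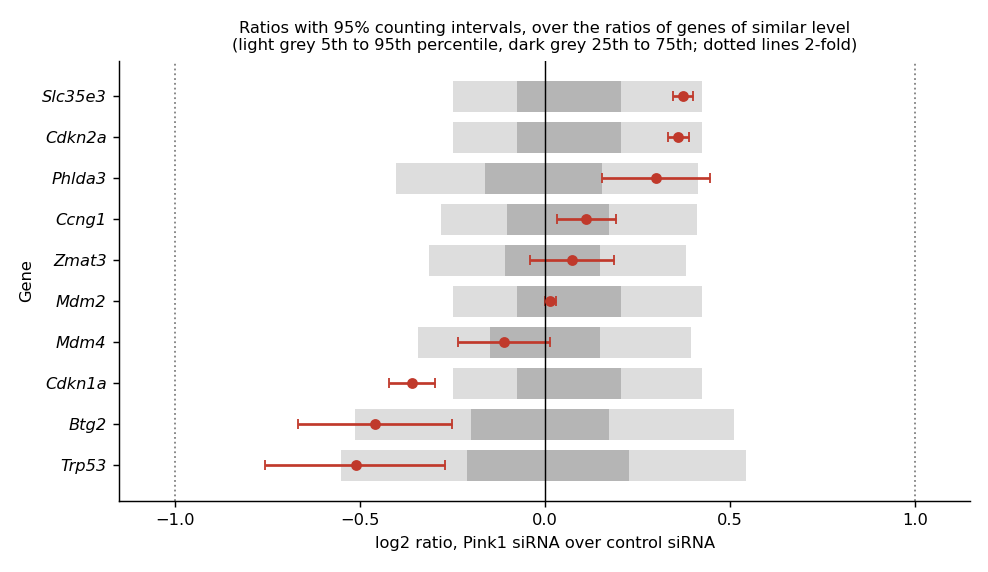
log2 ratios, Pink1 siRNA over control siRNA, of the 10 genes (points) with 95% counting intervals (bars). Grey bands show the ratios of the 583 measured genes of similar level (25th to 75th percentile dark, 5th to 95th percentile light), and Cdkn1a at -0.36 is the gene outside its light band.

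The wider list of p53 targets, members included, had ratios on both sides of 1. Of 44 listed targets, Mdm2 and 5 other members among them, 40 were measured, with 22 ratios above 1 and 18 below. Over all 11660 measured genes, 5957 ratios (51.1%) lay above 1 and 5703 below, so the split of the targets is close to the background. Counting intervals lay above 1 for 11 and below 1 for 12, against the shares of 26.2% and 24.9% over all measured genes. Their median log2 ratio was 0.05, against 0.00 over all measured genes. Outside the members, 34 targets were measured, with 18 ratios above 1 and 16 below. Of their counting intervals, 8 lay above 1 and 10 below. By the rule of size 1 of the 40 was higher and 1 lower, against 1.63% and 2.39% of all measured genes. The one higher was Gdf15, a stress-induced secreted factor, with 52 counts in the Pink1 siRNA library and 25 in the control library, a ratio of 2.06 (counting interval 1.27 to 3.50). The one lower was Sesn2, a stress sensor that restrains mTORC1, with 27 and 55 counts, a ratio of 0.496 (counting interval 0.298 to 0.792). Both calls rest on few counts, and the widened intervals of both included 1 (0.611 to 8.44 for Gdf15 and 0.129 to 1.5997 for Sesn2).

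The next furthest from 1 were Sfn, the 14-3-3 sigma gene, with 16 counts in the Pink1 siRNA library and 32 in the control library, and Tigar, a regulator of glycolysis, with 86 and 147 counts. Their log2 ratios were -0.98 and -0.77. Pmaip1, the gene of the death factor Noxa, had 6 counts in the Pink1 siRNA library and 0 in the control library and was not measured, nor were Perp and Pidd1, at 0 in both, or Lif, at 0 and 2.

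The targets were also grouped by an assigned role, after their values had been seen. The splits and medians of these groups are therefore descriptions and not tests. Over all measured genes, 51.1% of ratios lay above 1. Of 10 targets assigned to growth arrest and the cell cycle, 6 had a ratio below 1 and 4 above. Their median log2 ratio was -0.36, with a range from -0.98 (Sfn) to 0.37 (Plk3, 44 and 34 counts). The 6 below 1 were Cdkn1a, Btg2, Sfn, Gadd45a (93 counts in the Pink1 siRNA library and 142 in the control library), the kinase gene Plk2 (228 and 293) and Rap2b (971 and 1249). Rap2b, a small GTPase gene, is not a known growth arrest gene, and its place in this group is loose. Counting intervals lay below 1 for the 6 with a ratio below 1 and above 1 for 3 others of the 10. The shares over all measured genes were 24.9% and 26.2%, and 0 of the 10 widened intervals left out 1. Gadd45a overlaps E230016M11Rik (35 and 27 counts) and Plk3 overlaps Tctex1d4 (39 and 28), and their counts are uncertain.

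Of 11 measured cell death targets, 7 had a ratio above 1 and 4 below, with a median of 0.06. Among them the BCL2 family killers Bax (167 counts in the Pink1 siRNA library and 112 in the control library, ratio 1.49) and Bbc3, the Puma gene (452 and 315 counts, ratio 1.43), were highest. The death receptor family gene Eda2r (298 and 432 counts, ratio 0.690) and the apoptosome gene Apaf1 (233 and 316 counts, ratio 0.738) were lowest. Of 5 repair and nucleotide supply genes, Ddb2, a sensor of ultraviolet damage, was furthest from 1 with 256 and 160 counts (ratio 1.598). Since Acp2 (1197 and 993 counts) overlaps it over 2527 bases, that value is uncertain. Xpc had 446 and 458 counts and Rrm2b 153 and 162. Of 8 metabolic and redox targets, 5 had a ratio above 1 and 3 below, with a median of 0.10; besides Sesn2 and Tigar, the carbonyl reductase gene Dcxr (379 and 264 counts) was furthest from 1 at a log2 ratio of 0.52. The noncoding RNA gene Trp53cor1 (91 and 142 counts) was at -0.64. Apart from the members, Gdf15, Sesn2, Sfn and Tigar, the genes in these role groups were named after their values were seen, and no target had a widened interval that left out 1.

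Regulators of p53 had ratios on both sides of 1. All 27 listed were measured, 13 with a ratio above 1 and 14 below, with a median log2 ratio of -0.01. Over all measured genes, 51.1% of ratios lay above 1. Counting intervals lay above 1 for 7 of the 27 and below 1 for 5, against 26.2% and 24.9% of all measured genes. None of the 27 passed the rule of size and 0 widened intervals left out 1, against 4.02% and 4.1% of all measured genes. The 4 with ratios furthest from 1 included Rps7 (2898 counts in the Pink1 siRNA library and 2171 in the control library, ratio 1.34) and Rpl23 (23077 and 19038, ratio 1.21), ribosomal proteins that can bind Mdm2. The other two were the checkpoint kinase Chek2 (175 and 140, ratio 1.25) and Trim24, a ubiquitin ligase of p53 (1268 and 1570, ratio 0.808). Ribosomal protein genes have near-identical pseudogenes, and their counts are uncertain. Usp7, the deubiquitinase of Mdm2 and p53, was at 0.941 and the damage kinase Atm at 0.901, both named after their values were seen.

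Of the genes that p53 represses through p21 and the DREAM complex, most had ratios below 1. All 12 listed were measured, and 10 of them were below a ratio of 1, with a median log2 ratio of -0.19 against 0.00 over all measured genes. Over all 11660 measured genes, 5703 were below a ratio of 1. Of the 12, 8 counting intervals lay below 1, 0 lay above and 4 included 1. The share of counting intervals below 1 over all measured genes was 24.9%. The 12 are cell cycle genes that tend to move together, so they are not 12 separate observations. Whether the cultures differed in cell division was not tested. None of the 12 passed the rule of size and 0 widened intervals left out 1, against 4.02% and 4.1% of all measured genes. The mitotic phosphatase Cdc25c had 59 counts in the Pink1 siRNA library and 86 in the control library, a log2 ratio of -0.54. The mitotic kinases Cdk1 (1599 and 2076 counts) and Plk1 (1048 and 1356) had -0.38 and -0.37, and the transcription factor Foxm1 (387 and 485) had -0.33. The 2 with a ratio above 1 were Mybl2 (75 and 65 counts, ratio 1.153) and Ccnb2 (337 and 328 counts, ratio 1.03), both named after their values were seen.

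**Figure D4:**
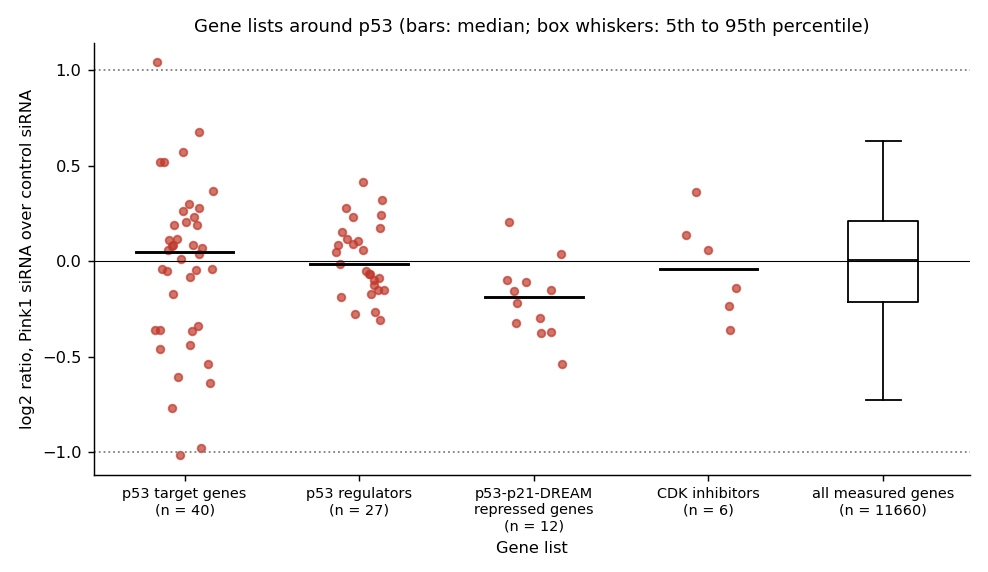
log2 ratios, Pink1 siRNA over control siRNA, of the measured genes of 4 lists (points, bars at the medians) beside all 11660 measured genes (box with 5th to 95th percentile whiskers). The p53 targets lie on both sides of 0 with a median of 0.05, and the p53-p21-DREAM list has a median of -0.19.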

How the data were processed

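The authors deposited raw counts per gene symbol, 1 table for each library; whole numbers and unequal totals show the unit. The submitters' processing notes name mm10 and the tools Bowtie2, bedtools and bcl2fastq (2.20.0.422). Trizol RNA went into a QuantSeq kit, per the labels' protocols. The annotation, strand use and placing of multiply mapped reads are not given in the sources used here.

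Counts were scaled by TMM effective library sizes (edgeR 4.0.16, R 4.3.3) and given as CPM. Ratios are Pink1 siRNA over control siRNA with 0.5 added to scaled counts. Intervals are exact conditional binomial (Clopper-Pearson, SciPy 1.17.1) at 95%. The widened interval divides both counts by the mean excess over binomial variance in the gene's twentieth of mean level, from 5.58 to 128. Genes of similar level are those of the same twentieth. The depth allows 0.214 CPM for a count of 0 (3 counts).

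The members and lists were chosen with earlier results of these data known. Named genes were all members, RefSeq genes within 500 kb of Mdm2 and Cdkn2a, and the 5 genes nearest to Mdm2. Every list gene past the rule of size was named, with up to 4 measured genes furthest from a ratio of 1 per list. Named outside this rule without a mark were Cdkn1b, list genes not measured, Pink1, cell type markers, the highest rows and overlapping genes. Other genes named outside it are marked. No member overlaps another GENCODE M21 gene with at least 40 counts. Rows of repeated symbols (79) were counted but not named. The ratio and interval code was tested on simulated data. Alternatives were other scalings (DESeq2 1.42.0 size factors among them), pseudocount, filters, ratios and intervals.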

Additional observations from a re-analysis of the deposited data

How the results depend on the processing

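With total counts, the log2 ratio was -0.028 for Mdm2, 0.33 for Slc35e3 and 0.32 for Cdkn2a. With total counts without Rn45s, it was -0.043, 0.32 and 0.30. The 7 other members stayed within their counting intervals under every scaling and with 5 added. No member passed the rule of size under any of the settings run. With the widened interval, 2 members left out 1. Of the p53 targets, 7 passed at a ratio of 1.5, 0 at a ratio of 4, 0 at a summed count of 200, 0 with the widened interval and 0 with 5 added, against 2 as reported. Sfn was gained with total counts (3 targets) and with total counts without Rn45s, and Pmaip1 (6 and 0 counts) with no filter (3 targets). Gdf15 had a log2 ratio of 0.99 without Rn45s and 0.93 with 5 added, and Sesn2 -0.91 with 5 added, each short of the rule.

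Over all genes, 190 were higher and 279 lower. The counts were 633 and 774 at a ratio of 1.5, 23 and 44 at a ratio of 4, 597 and 853 with no filter, 26 and 40 at a summed count of 200, and 48 and 81 with the widened interval. Per kilobase of transcript, Mdm2 ranked 16 in the Pink1 siRNA library and 10 in the control library. The median of measured Mdm2 neighbours was 86.8 and 103 CPM within 1000 kb (12 genes) and 48.4 and 42.4 CPM within 2000 kb (15 genes). The cause of the differences between settings was not tested. No paired analysis was possible because each group has 1 library. Depth limits the low targets: Gdf15 and Sesn2 rest on at most 55 counts per library.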
